A study of Mus musculus with 16 samples.

Results

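The integrin and laminin subunit genes of MEC1, an established mouse epicardial cell line, were taken as every row of the deposited gene table whose gene symbol is one of 36 listed subunits. All 36 were found among 46348 rows: 18 integrin alpha subunits, 8 integrin beta subunits and 10 laminin chains. Of these, 27 passed the filter on low counts and were tested (11 alpha, 7 beta and 9 laminin), and 9 did not: Itga2, Itga4, Itga8, Itgad, Itgal, Itgam, Itgax, Itgb6 and Lama2. Itga8, Itgad, Itgal, Itgam and Itgax were at the floor, taken as 3 counts or fewer, in each of the 16 libraries.

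RNA enriched for poly(A) was sequenced from 8 groups of 2 libraries. Cells were given a control siRNA, an siRNA against PRMT1, an siRNA against p53, or the last pair together, and each of these 4 treatments was given without and with TGF-beta, so that no group is free of siRNA. The dose and duration of TGF-beta and the siRNA amounts are not given in the sources used here. Nothing there says that the 2 libraries of a group came from separate cultures, so p-values measure the spread between these libraries, which may be technical. The study's title links PRMT1, Mdm4 and p53 to the invasion of epicardial cells, and the question here is how the adhesion receptors and their matrix ligands responded to TGF-beta and to each siRNA.

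Integrins are cell surface receptors made of an alpha and a beta subunit, and the pairing sets which matrix protein a cell can hold: collagens, laminins, or fibronectin and vitronectin through their RGD motif. Laminins are trimers of an alpha, a beta and a gamma chain that build the basement membrane under epithelial and mesothelial sheets such as the epicardium. When epicardial cells leave this sheet and invade, as they do in heart development, they move from a basement membrane into a matrix rich in fibronectin and collagen.

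To set sequence beside the TGF-beta response, promoters are shown for the 2 members with the largest rise and the 2 with the largest fall among those that both changed under control siRNA and have an entry in the RefSeq promoter table (GRCm38.p6), which held 23 of the 36 genes in 26 windows. Each window runs from 250 bases before to 50 bases after an annotated transcript start. The windows lie at chr9:62677605-62677904 on the plus strand for Itga11, chr1:193301744-193302043 on the plus strand for Lamb3, chr11:102469834-102470133 on the minus strand for Itga2b, and chr13:115101915-115102214 on the minus strand for Itga1. Capitals mark matches, on either strand, to a SMAD box (CAGACA), an AP-1 site (TGANTCA), a TEAD site (GGAATG) or an E-box of the kind bound by Snail and ZEB factors (CAGGTG).
Itga11: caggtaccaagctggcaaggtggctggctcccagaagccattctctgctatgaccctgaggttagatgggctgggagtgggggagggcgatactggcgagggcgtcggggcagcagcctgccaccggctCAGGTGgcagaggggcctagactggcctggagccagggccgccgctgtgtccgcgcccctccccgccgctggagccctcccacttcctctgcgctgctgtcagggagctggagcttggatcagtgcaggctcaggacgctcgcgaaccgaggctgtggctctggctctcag
Lamb3: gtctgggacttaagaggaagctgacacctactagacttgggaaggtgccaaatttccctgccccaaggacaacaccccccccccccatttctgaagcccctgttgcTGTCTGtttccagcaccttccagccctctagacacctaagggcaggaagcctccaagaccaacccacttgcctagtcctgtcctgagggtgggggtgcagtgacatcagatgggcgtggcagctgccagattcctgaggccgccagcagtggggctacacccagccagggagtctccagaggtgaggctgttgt
Itga2b: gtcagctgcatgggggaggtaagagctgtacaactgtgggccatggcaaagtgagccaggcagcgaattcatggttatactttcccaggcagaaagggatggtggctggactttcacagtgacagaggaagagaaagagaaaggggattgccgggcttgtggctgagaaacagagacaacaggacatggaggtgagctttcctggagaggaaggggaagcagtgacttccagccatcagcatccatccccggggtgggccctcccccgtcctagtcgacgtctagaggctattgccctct
Itga1: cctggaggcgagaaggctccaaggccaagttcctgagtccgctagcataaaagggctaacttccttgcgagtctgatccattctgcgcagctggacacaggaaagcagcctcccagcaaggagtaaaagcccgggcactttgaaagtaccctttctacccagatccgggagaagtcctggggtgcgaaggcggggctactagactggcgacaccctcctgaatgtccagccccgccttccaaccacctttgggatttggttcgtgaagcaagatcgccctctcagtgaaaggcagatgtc
The Lamb3 window shown lies inside the annotated span of its gene, and a second window of Lamb3, at chr1:193301993-193302292, holds 1 TEAD site, 2 E-boxes and no SMAD box. The Itga11 window holds 1 E-box, the Lamb3 window shown 1 SMAD box on the minus strand, and the Itga2b and Itga1 windows none of the 4 motifs. Over all 32851 promoter windows of the table, the SMAD box letters were in 21.0%, the AP-1 letters in 7.81%, the TEAD letters in 14.7% and the E-box letters in 20.2%. Of the 7 genes with a promoter entry that rose with TGF-beta under control siRNA, 2 held a SMAD box, 0 an AP-1 site, 2 a TEAD site and 3 an E-box. Among the 6 such genes that fell, these numbers were 2, 1, 1 and 2. The matches describe letters in a window and say nothing about binding.

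Levels are given as CPM (counts scaled to a common library size by TMM), one value per library in replicate order. Levels of different genes are compared as CPM per kilobase of the longest annotated transcript. On that scale Itgb1, the beta subunit that pairs with the widest range of alpha subunits, was the highest integrin in control cells without TGF-beta, with a group mean of 204 CPM per kilobase. Lamb1 had 41.9, Itga3 had 34.8, Itgav 27.4, Lama5 27.1, Itgb5 25.4, Lamb2 23.7, Itga5 22.6 and Itga6 19.1, and the 2 libraries of Lamc1, the common gamma chain, had 56.4 and 65.7. These are the chains of an alpha5 laminin and of receptors for laminin, fibronectin and vitronectin. The other members with a mean above 1 CPM per kilobase in these cells were Itga1 (3.37), Itgb2 (2.63), Itgb3 (1.91) and Itga2b (1.05).

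TGF-beta changed most of the subunits that these cells express, and in both directions. Under control siRNA 10 of the 27 tested members rose and 10 fell, against 17.8% and 20.6% of all 15494 genes tested. Under PRMT1 siRNA 9 rose and 9 fell (16.3% and 16.2% of all genes), under p53 siRNA 10 and 9 (23.3% and 22.0%), and under both siRNAs 10 and 9 (15% and 16.3%). The median log2 change of the tested members was -0.20, -0.05, -0.05 and -0.14 in these 4 settings, and that of all genes tested -0.01, -0.01, 0.02 and -0.02. Over the tested genes with a known length, the log2 changes had trends with transcript length that differed in sign between the settings. These were 0.22, -0.42, -0.45 and 0.39 log2 per 10-fold length, in the same order. In all 4 settings Itga5, Itga7, Itga11, Itgb1, Itgb3, Itgb5, Lama1, Lamb1 and Lamb3 rose, and Itga1, Itga2b, Itga3, Itga6, Itgb2, Lama4, Lama5, Lamb2 and Lamc3 fell. A gene counts as changed at an adjusted p under 0.05 in the edgeR quasi-likelihood test, and values after a gene are log2 changes ± SE with n = 2 libraries per group. In bulk RNA, fewer cells of a type and less RNA per cell cannot be told apart.

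**Figure D1:**
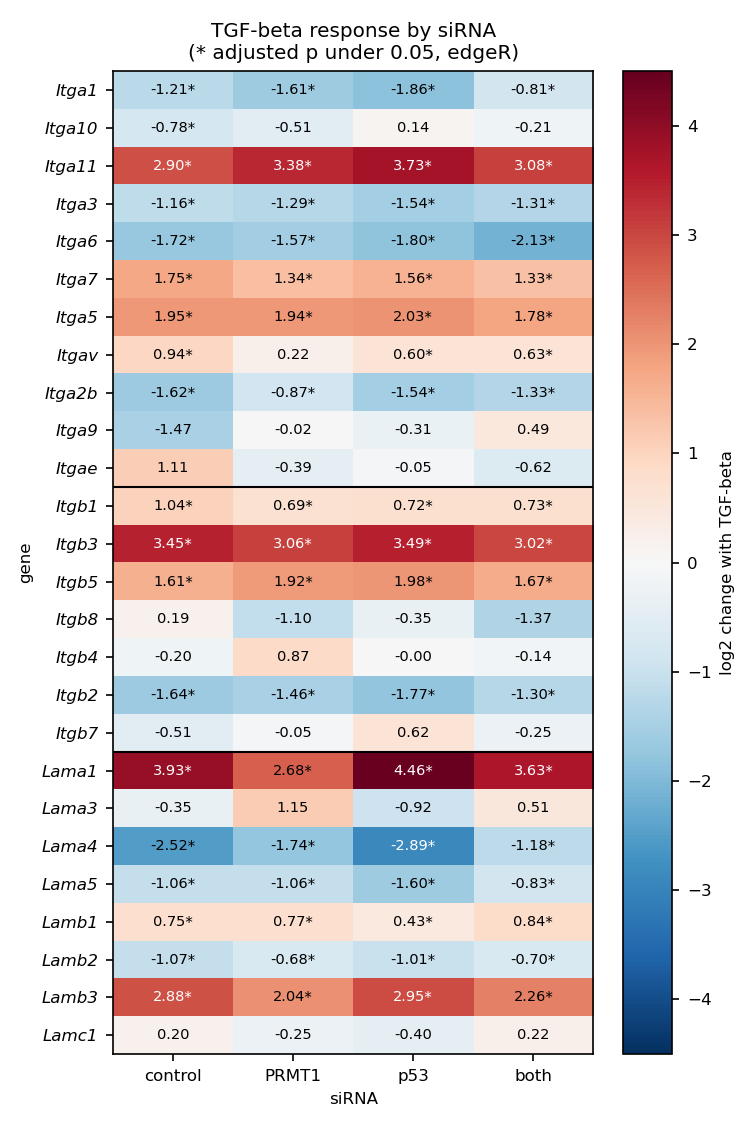
Log2 change with TGF-beta (colour and number) of 26 tested members (rows; Lamc3, near the floor with TGF-beta, is left out) under each of the 4 siRNA treatments (columns), with an asterisk where the adjusted p was under 0.05. Lines part the alpha subunits, the beta subunits and the laminin chains. The rows of Itga11, Itgb3 and Lama1 carry changes of 2.68 to 4.46 in all 4 columns, and those of Itga3 and Itga6 changes of -2.13 to -1.16.

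The receptors for laminin fell. Itga3 (chr11:95044474-95076802, minus strand, mm10), which with Itgb1 binds the alpha5 laminins, had 163 and 176 CPM in the control libraries and 77.0 and 75.0 with TGF-beta (-1.16 ± 0.07, adjusted p = 1.09e-07). Itga6, a laminin receptor that pairs with Itgb1 or with Itgb4, went from 86.8 and 77.9 CPM to 25.1 and 24.8 (-1.72 ± 0.15, adjusted p = 2.52e-06). No library with TGF-beta reached the level of a library without it for either gene. Over the 8 libraries of each kind, Itga3 lay between 137 and 180 CPM without and 56.6 and 77.0 with TGF-beta. Itga6 lay between 74.0 and 107 without and 22.3 and 34.4 with it, the 34.4 being replicate 2 of p53 siRNA.

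Itga7, the laminin receptor of muscle, went the other way at a low level. Its 2 control libraries had 0.354 and 0.193 CPM and the 2 with TGF-beta 1.09 and 0.805, from 4 to 38 counts over all libraries. The rise of 1.75 ± 0.46 had an adjusted p of 0.0107, and the rises under PRMT1, p53 and both siRNAs were 1.34, 1.56 and 1.33. Each of these 4 calls was lost when 1 library was left out: without control replicate 2 (1.38) or TGF-beta replicate 1 (1.53), without PRMT1 siRNA replicate 1 (1.57) or 2 (1.15) or its TGF-beta replicate 1 (1.16), without p53 siRNA replicate 1 (1.48) or 2 (1.66) or its TGF-beta replicate 2 (1.22), and without replicate 1 of both siRNAs, untreated (0.95) or treated (0.97). The call under p53 siRNA was also lost with its groups fitted alone (adjusted p = 0.0909). Its exons overlap those of Mettl7b on the other strand, and the strand setting of the counting is not given in the sources used here.

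Of the 4 alpha subunits that bind RGD motifs, Itga5 rose in all 4 siRNA settings, Itgav in 3, Itga2b fell and Itga8 was at the floor. Itga5 (chr15:103344289-103366764, minus strand, mm10), the alpha subunit of the main fibronectin receptor, had 96.0 and 102 CPM in control libraries and 388 and 377 with TGF-beta. Under PRMT1 siRNA it went from 92.3 and 93.9 CPM to 363 and 353, under p53 siRNA from 89.7 and 90.2 to 344 and 389, and under both from 84.9 and 92.3 to 306 and 302. The rises were 1.94 ± 0.08, 2.03 ± 0.08 and 1.78 ± 0.08 under these 3 siRNA treatments (adjusted p = 7.58e-09, 2.70e-09 and 1.22e-08), and the treated and untreated libraries did not overlap.

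Itgav, the alpha subunit of vitronectin receptors and of the integrins that release latent TGF-beta, had 176 and 211 CPM in control libraries and 365 and 375 with TGF-beta (0.94 ± 0.20, adjusted p = 0.00316). With PRMT1 siRNA its libraries had 229 and 221 CPM without and 259 and 266 with TGF-beta, a difference of 0.22 that did not pass the test (adjusted p = 0.422). That difference passed it once replicate 2 of TGF-beta-treated p53 siRNA cells was left out (0.22, adjusted p = 0.0211), a library outside the comparison that adds to the shared estimate of the spread. With p53 siRNA the treated libraries were far apart at 349 and 190 CPM, against 181 and 175 untreated (0.60, adjusted p = 0.0310), and without replicate 1, the higher of them, the change was 0.10. The call under p53 siRNA was also lost without untreated replicate 1 (0.62) or 2 (0.58), and with its groups fitted alone (adjusted p = 0.311), and the change was 0.97 without replicate 2 of the treated libraries. Both siRNAs gave 172 and 187 CPM without and 270 and 284 with TGF-beta (0.63, adjusted p = 0.0342), and leaving out any 1 of these 4 libraries ended the call at values of 0.58 to 0.69.

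Itga2b, which with Itgb3 forms the platelet fibrinogen receptor, was lower with TGF-beta. It had 3.85 and 3.34 CPM in control libraries and 1.20 and 1.14 with TGF-beta (-1.62 ± 0.24, adjusted p = 1.86e-04). The falls under PRMT1, p53 and both siRNAs were -0.87, -1.54 and -1.33. The call under PRMT1 siRNA was lost without its untreated replicate 2 (-0.72) or treated replicate 1 (-0.71). Markers of platelets and megakaryocytes summed to 1.81 and 2.66 CPM in control libraries and 1.20 and 1.27 with TGF-beta. Of these 9 markers 4 were tested, and 1 rose and 2 fell under control siRNA, against 17.8% and 20.6% of all genes. Gp6 had no count in any library, Gp9 at most 1 and Pf4, the platelet chemokine, at most 4 counts. Their part in the level of Itga2b was not tested.

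Among the collagen receptors Itga11 rose, and Itga1 and, by a call that several settings ended, Itga10 fell. Itga11, the receptor for fibrillar collagen on fibroblasts, had 2.96 and 3.29 CPM in control libraries and 24.6 and 22.2 with TGF-beta (2.90 ± 0.18, adjusted p = 1.24e-07). Its rise was 3.38, 3.73 and 3.08 under PRMT1, p53 and both siRNAs. Itga1, which prefers the collagen of basement membranes, fell from 32.6 and 41.4 CPM to 16.2 and 15.8 (-1.21 ± 0.17, adjusted p = 1.76e-04), and by 1.61, 1.86 and 0.81 in the other settings. No treated library overlapped the untreated ones for either gene. Itga10 passed the test under control siRNA, from 2.17 and 2.08 CPM to 1.14 and 1.31 (-0.78 ± 0.23, adjusted p = 0.0167), a call lost without control replicate 1 (-0.75) or TGF-beta replicate 1 (-0.69), with no filter on low counts (adjusted p = 0.0557) and in DESeq2 (adjusted p = 0.0614). Exons of Itga1 overlap those of Gm49395 and exons of Itga10 those of Gm42957, both on the same strand, so reads could be split between them. Itga2 had at most 5 counts in a library.

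Taken as CPM per kilobase over the 18 alpha subunits, the laminin receptors Itga3, Itga6 and Itga7 held 43.9% to 53.2% in the 8 libraries without TGF-beta (median 50.3%) and 11.4% to 14.3% in the 8 with it (median 12.8%). The RGD-binding subunits went the other way, from 41.5% to 51.5% (median 45.6%) to between 79.6% and 83.4% (median 82.4%). These classes hold most of the pool, so a fall in the share of one goes with a rise in the other. Itga5 alone moved from 17.9% to 20.7% of the pool to between 49.8% and 60.8%. The other RGD-binding subunits did not follow it. Itgav overlapped, at 22.4% to 30.6% without and 18.5% to 31.8% with TGF-beta, and Itga2b fell from at least 0.857% to at most 0.542%. Collagen receptors together held 3.26% to 5.32% without and 3.69% to 7.09% with TGF-beta, while Itga11 went from at most 0.673% to at least 2.67% and Itga1 from at least 2.46% to at most 1.29%. These shares are of transcripts and rest on 1 transcript length per gene.

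**Figure D2:**
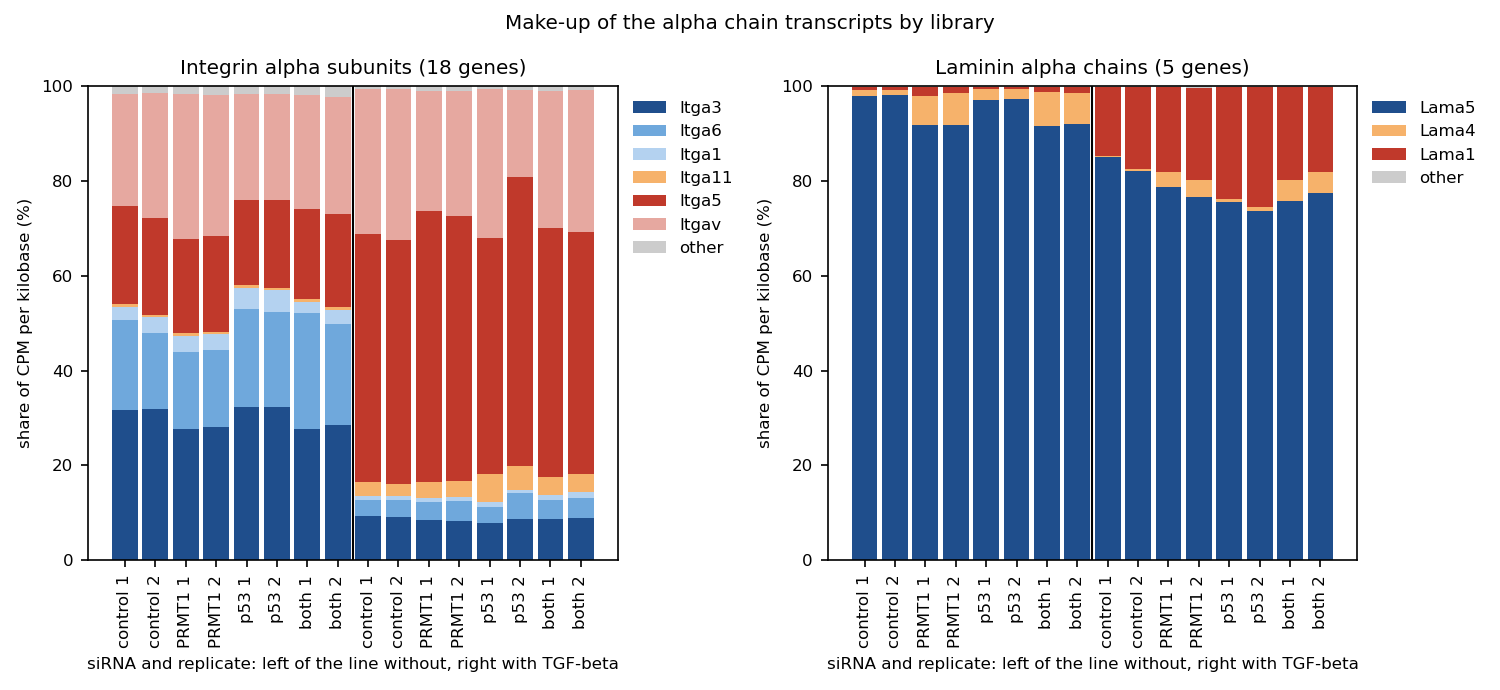
Share of CPM per kilobase (vertical axis, percent) held by each gene within the 18 integrin alpha subunits (left) and the 5 laminin alpha chains (right), with 1 bar per library and the libraries with TGF-beta right of the line. Itga5 (red, left) takes 49.8% or more of every bar with TGF-beta, and Lama1 (red, right) takes 14.4% to 25.4% there against 1.93% or less without.

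All 3 beta subunits of matrix receptors that are well expressed here rose. Itgb1 had 764 and 795 CPM in control libraries and 1590 and 1620 with TGF-beta (1.04 ± 0.08, adjusted p = 9.35e-07). Itgb3 (chr11:104608000-104670477, plus strand, mm10), the partner of Itgav and Itga2b, went from 10.3 and 11.8 CPM to 116 and 126. Itgb5, a partner of Itgav in vitronectin receptors, went from 85.5 and 81.4 CPM to 248 and 264 (1.61 ± 0.11, adjusted p = 3.04e-07). For these 3 genes treated and untreated libraries did not overlap in any siRNA setting. Fitted on the 2 groups of that comparison alone, the Itgb1 rise under p53 siRNA did not pass the test (adjusted p = 0.0686). Within the beta pool, Itgb1 went from 86.3% to 89.1% of CPM per kilobase without TGF-beta to between 71.0% and 81.2% with it, Itgb5 from at most 11.3% to at least 14.7%, and Itgb3 from at most 0.856% to at least 2.82%. So Itgb1 rose in CPM while its share of the beta transcripts fell.

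Itgb2, the beta subunit of leukocyte integrins, fell in all 4 settings. It had 7.52 and 8.13 CPM in control libraries and 2.13 and 2.84 with TGF-beta (-1.64 ± 0.19, adjusted p = 3.76e-05), and the falls under the other siRNAs were -1.46, -1.77 and -1.30. Its alpha partners Itgad, Itgal, Itgam and Itgax were at the floor throughout, so the files hold the beta chain without a measurable partner. The 13 leukocyte markers summed to 7.30 and 8.67 CPM in control libraries and 4.62 and 5.40 with TGF-beta, and to between 3.67 and 9.92 over all 16 libraries. Of the 5 that were tested, 1 rose and 2 fell under control siRNA, against 17.8% and 20.6% of all genes. Ptprc, which encodes CD45, had at most 4 counts in a library, Tyrobp and Adgre1 had none, and the largest of the 13, Lcp1, had 1.03 to 5.68 CPM. Their part in the level of Itgb2 was not tested.

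Itgb4, Itgb7 and Itgb8 passed the filter and changed in none of the 4 settings, with at most 0.919, 0.632 and 0.641 CPM in a library. The same held for Itga9 and Itgae, with at most 0.786 and 0.490 CPM. Itgb4 joins Itga6 in hemidesmosomes, Itgb8 joins Itgav in releasing TGF-beta, and Itgae with Itgb7 forms a lymphocyte receptor for E-cadherin. Itgb6 had at most 0.193 CPM and Itga4, a receptor for VCAM1 and fibronectin, at most 0.328. At these depths of 19617874 to 30759317 counts a library, changes in such genes may not have been detectable.

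The laminin chains also moved in both directions. Lama5, the alpha chain of most adult basement membranes, had 278 and 339 CPM in control libraries and 157 and 139 with TGF-beta (-1.06 ± 0.21, adjusted p = 0.00175). It fell by 1.06, 1.60 and 0.83 under PRMT1, p53 and both siRNAs, and the last call was lost without untreated replicate 2 (-0.60) or treated replicate 1 (-0.69). Lama1 (chr17:67697265-67822646, plus strand, mm10), the alpha chain of the early embryo's basement membranes, went from 1.19 and 1.89 CPM to 22.3 and 24.4 (3.93 ± 0.30, adjusted p = 9.34e-07), the largest rise among the members. It rose by 2.68, 4.46 and 3.63 in the other settings. Lama5 still held 73.7% to 85.1% of alpha chain CPM per kilobase with TGF-beta, against 91.6% to 98.0% without, while Lama1 rose from at most 1.93% to at least 14.4%.

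Lama4 (chr10:38965515-39110189, plus strand, mm10), the alpha chain of vascular and mesenchymal basement membranes, fell. Its control libraries had 1.95 and 2.18 CPM and those with TGF-beta 0.218 and 0.466 (-2.52 ± 0.31, adjusted p = 4.98e-05). The falls were -1.74 ± 0.19 under PRMT1 siRNA, -2.89 ± 0.26 under p53 siRNA and -1.18 ± 0.18 under both (adjusted p = 2.37e-05, 2.92e-06 and 3.69e-04). The treated libraries held only 4 and 11 counts with control siRNA and 9 to 15 with p53 siRNA, so the sizes of these 2 falls are uncertain. Lama3, an epithelial chain, changed in none of the settings, with at most 0.635 CPM, and Lama2, the chain of muscle, had at most 0.615 CPM and was not tested.

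Of the beta chains, Lamb1 rose and Lamb2 fell. Lamb1 had 238 and 246 CPM in control libraries and 417 and 400 with TGF-beta (0.75 ± 0.08, adjusted p = 1.80e-05), and its rise under p53 siRNA was lost when fitted on the 2 groups of that comparison alone (adjusted p = 0.182). Lamb2, which takes the place of Lamb1 in mature basement membranes, had 132 and 135 CPM and then 65.0 and 62.3 (-1.07 ± 0.08, adjusted p = 1.25e-06). Together they shifted the beta chain transcripts from 60.9% to 64.8% Lamb1 to between 78.8% and 85.4%. Lamb3, a chain of epithelial laminins, rose from 0.575 and 0.532 CPM to 4.47 and 3.77 (2.88 ± 0.37, adjusted p = 6.78e-05), and by 2.04, 2.95 and 2.26 in the other settings. Its untreated libraries held few counts: 11 to 13 with control, 5 to 12 with PRMT1, 7 to 8 with p53 and 5 to 9 with both siRNAs. The size of the rise is therefore uncertain. Without 1 library it was 1.57 to 2.75 under PRMT1 siRNA and 1.70 to 2.96 under both.

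Lamc1, which most laminins share, had 430 and 501 CPM in control libraries and 538 and 528 with TGF-beta, and its difference of 0.20 did not pass the test (adjusted p = 0.505). It changed in none of the 4 settings. Lamc3 fell in all 4, from 1.33 and 1.40 CPM to 0.109 and 0.127 under control siRNA (adjusted p = 8.21e-04) and from 2.81 and 3.28 to 0 and 0.206 under p53 siRNA. With TGF-beta 5 of the 8 libraries were at the floor, so no fold is given. The call under PRMT1 siRNA was lost without untreated replicate 2 (adjusted p = 0.0977) or treated replicate 2 (adjusted p = 0.106), and its exons overlap those of Gm13441 on the other strand.

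**Figure D3:**
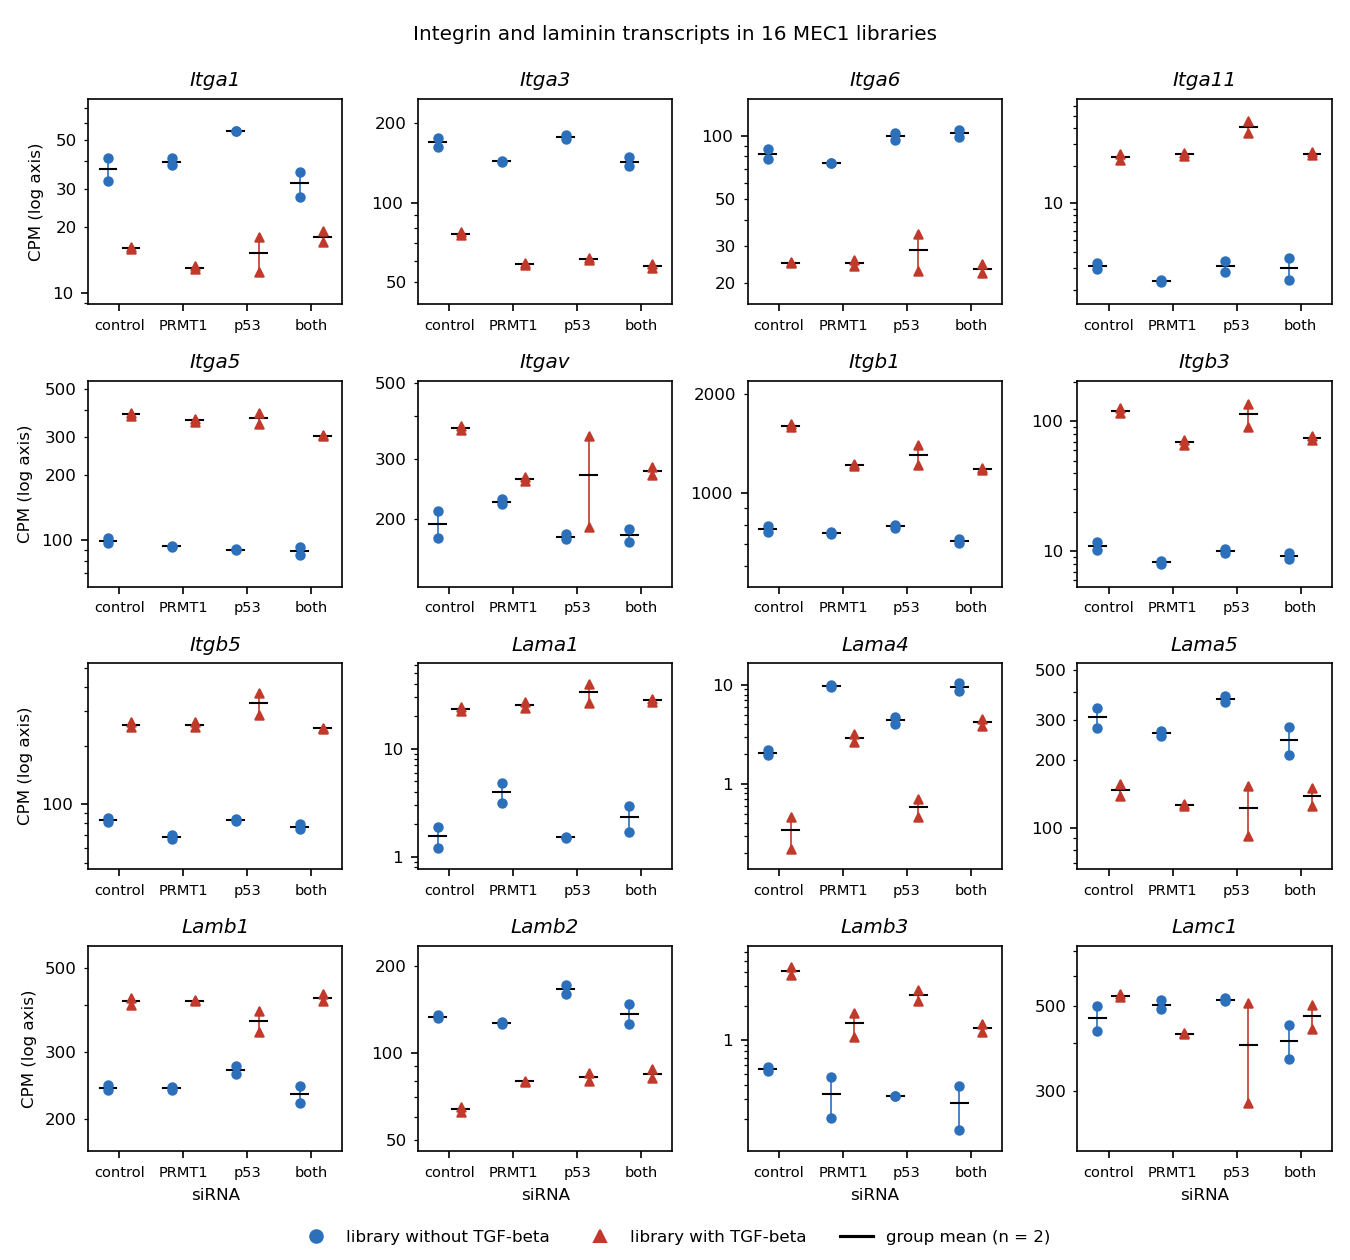
CPM (vertical axes, logarithmic) of 16 members in the 16 libraries, by siRNA treatment, with blue circles for libraries without and red triangles for libraries with TGF-beta, a line joining the 2 libraries of a group and a bar at their mean. Blue and red are far apart for Itga5 (96.0 and 102 against 388 and 377 CPM with control siRNA) and close for Lamc1, and Lama4 sits higher with PRMT1 siRNA (9.59 and 10 CPM) than with control siRNA (1.95 and 2.18).

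Each siRNA lowered its target. Prmt1 had 62.5 to 78.3 CPM in the 8 libraries with PRMT1 siRNA and 143 to 272 in the others, and Trp53 had 54.2 to 90.7 CPM with p53 siRNA and 128 to 192 without. The second TGF-beta-treated library of p53 siRNA (replicate 2) stood apart from its partner, with a root mean square log2 difference of 0.805 over genes where the other 7 groups had 0.341 to 0.426, and its values fell with transcript length (-0.85 log2 per 10-fold length against -0.24 to 0.24). The tested members have long transcripts, with a median of 5629 bases against 2928 for all tested genes with a known length. In that library Itgav (190 against 349 CPM), Lamc1 (279 against 510), Lama5 (92.0 against 153) and Itgb3 (90.1 against 137) were below the partner, and Itgb5 (372 against 285) was above it.

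Among the members, PRMT1 siRNA moved Lama4 by far the most. Without TGF-beta 2 of 27 rose and 1 fell, against 4.48% and 5.85% of all genes. With TGF-beta 3 rose and 4 fell, against 9.13% and 6.53%. The median change of the tested members was -0.07 and 0.00 in the 2 conditions and that of all genes 0.01 and 0.02. Beside the comparison with TGF-beta stands a trend with transcript length of -0.39 log2 per 10-fold length, and of 0.25 beside the one without. The member counts with length offsets in the fit are given with the other settings at the end.

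Lama4 had 1.95 and 2.18 CPM with control siRNA and 9.59 and 10 with PRMT1 siRNA, a rise of 2.25 ± 0.20 (adjusted p = 8.79e-05) or 4.75-fold. With TGF-beta it had 0.218 and 0.466 CPM with control siRNA, only 4 and 11 counts, and 2.64 and 3.20 CPM with PRMT1 siRNA. This rise, less certain in size for the low counts, was 3.02 ± 0.29 (adjusted p = 9.01e-05). That value was 2.64 without replicate 1 of control siRNA with TGF-beta and 3.72 without replicate 2. Lama4 was the only member whose PRMT1 siRNA calls, in both conditions, held without any 1 library of the comparison. With both siRNAs it had 8.75 and 10.5 CPM without and 3.86 and 4.55 with TGF-beta, so the PRMT1 siRNA libraries stood above those with control siRNA whether or not p53 siRNA was added.

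With p53 siRNA alone Lama4 rose to 4.77 and 4.04 CPM (1.09 ± 0.21, adjusted p = 0.0212). It was the only member of 27 called without TGF-beta, against 1.17% of all genes called higher and 1.29% lower. The median change of the tested members was 0.08 and that of all genes 0.01. The call was lost without control replicate 1 (1.01) or 2 (1.16) or p53 siRNA replicate 1 (0.97) or 2 (1.21). With TGF-beta the p53 siRNA libraries had 0.704 and 0.464 CPM, and the difference from control of 0.72 did not pass the test (adjusted p = 0.270). The replicates overlapped there, at 0.218 to 0.466 for control and 0.464 to 0.704 for p53 siRNA.

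The other PRMT1 siRNA calls were smaller, and each was lost in 1 or more fits without 1 library. Itga3 fell in both conditions, to 143 and 144 CPM without TGF-beta (-0.24 ± 0.07, adjusted p = 0.0435) and to 59.2 and 57.9 CPM against 77.0 and 75.0 with it (-0.38 ± 0.07, adjusted p = 0.00498). Its first call was lost without any 1 of the 4 libraries (-0.30 to -0.19), with no filter on low counts (-0.23, adjusted p = 0.368) and with a replicate block (-0.24, adjusted p = 0.0627), and the second without PRMT1 siRNA replicate 2 (-0.36, adjusted p = 0.0578). Lama1 rose without TGF-beta, from 1.19 and 1.89 to 4.76 and 3.17 CPM (1.38 ± 0.34, adjusted p = 0.0244), a call lost without control replicate 1 (1.07) or 2 (1.72) or PRMT1 siRNA replicate 1 (1.05).

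With TGF-beta, PRMT1 siRNA left Itgb3 at 66.1 and 71.9 CPM against 116 and 126 (-0.81 ± 0.15, adjusted p = 0.00591) and Itgb1 at 1210 and 1230 against 1590 and 1620 (-0.39 ± 0.08, adjusted p = 0.00803). Lamb3 was at 1.07 and 1.74 CPM against 4.47 and 3.77 (-1.54 ± 0.32, adjusted p = 0.00897). Groups did not overlap for these genes, and all 3 still rose with TGF-beta under PRMT1 siRNA. Itga2b was higher, at 2.13 and 2.68 CPM against 1.20 and 1.14 (1.04 ± 0.24, adjusted p = 0.0148), and so was Lamb2, at 79.9 and 79.3 against 65.0 and 62.3 (0.32 ± 0.08, adjusted p = 0.0253).

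Left-out libraries ended these calls as follows. The Itgb3 call was lost without control replicate 2 (adjusted p = 0.0521) or PRMT1 siRNA replicate 1 (adjusted p = 0.0621), all libraries here being treated with TGF-beta. The Itgb1 call was lost without control replicate 2 (0.0621) or PRMT1 siRNA replicate 1 (0.0733) or 2 (0.0577), these being adjusted p-values too. The Lamb3 call was lost without control replicate 1 (adjusted p = 0.0702) or PRMT1 siRNA replicate 1 (adjusted p = 0.0914). The Itga2b call was lost without either control library or PRMT1 siRNA replicate 2 (adjusted p = 0.0778 to 0.117), and the Lamb2 call without any 1 of the 4 (adjusted p = 0.0963 to 0.138). Directions held in each of these fits.

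p53 siRNA with TGF-beta raised 2 members and lowered 1, against 2.82% and 2.39% of all genes, with a median of -0.06 for the members and 0.03 for all genes. Itga11 had 45.8 and 36.4 CPM against 24.6 and 22.2 with control siRNA (0.82 ± 0.15, adjusted p = 0.0101). Lamb2 had 79.6 and 85.3 CPM against 65.0 and 62.3 (0.37 ± 0.08, adjusted p = 0.0283), and Itga3 had 60.6 and 61.4 against 77.0 and 75.0 (-0.32 ± 0.07, adjusted p = 0.0257). Groups did not overlap for these 3 genes. The calls of Itga11 and Itga3 were lost without control replicate 1 (adjusted p = 0.0667 and 0.173) or 2 (0.0982 and 0.115), both treated with TGF-beta. That of Lamb2 was lost without control replicate 1 (adjusted p = 0.138) or 2 (0.174) or p53 siRNA replicate 2 (0.0515). The Itga3 call was also lost with no filter on low counts (adjusted p = 0.0890) and with length offsets in 16 libraries (-0.16, adjusted p = 0.186).

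The library that stands apart is 1 of the 2 with p53 siRNA here, and the comparison had a length trend of -0.61 log2 per 10-fold length. Without replicate 1 of p53 siRNA, which leaves that library alone, 11 of 28 members were called in place of 3, against 53.5% of all genes. Fitted on the groups of the comparison alone, edgeR called 0 members and 0.0% of all genes (0 of 14105). With both siRNAs and TGF-beta, Itga11 had 24.3 and 25.7 CPM, close to the 25.3 and 23.8 of PRMT1 siRNA. The difference between p53 siRNA and both siRNAs was not tested.

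**Figure D4:**
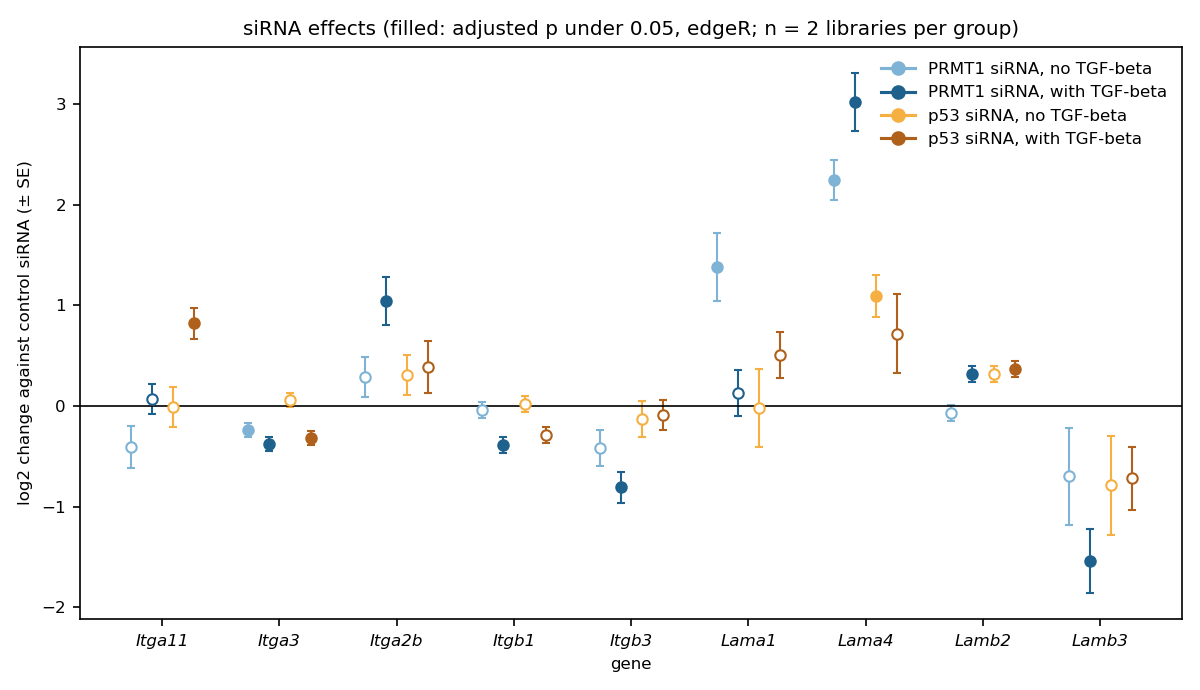
Log2 change against control siRNA (vertical axis, ± SE, n = 2 libraries per group) of the 9 members called in any comparison of a single siRNA with control, for PRMT1 siRNA (blue) and p53 siRNA (orange) without (light) and with (dark) TGF-beta; filled points have an adjusted p under 0.05. Lama4 stands at 2.25 and 3.02 with PRMT1 siRNA and 1.09 with p53 siRNA, and the other members lie between -1.54 and 1.38.

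Adding p53 siRNA to PRMT1 siRNA gave 0 called members without TGF-beta and 0 with it in edgeR, against 0.865% and 0.452% of all genes, with 3 members at an unadjusted p under 0.05 in each. The members' median change was -0.03 without and 0.02 with TGF-beta, beside 0.01 and 0.00 for all genes. DESeq2 called 1 member without TGF-beta (3.58% of all genes) and 0 with it (1.45%). That member was Itga6, at 107 and 98.7 CPM with both siRNAs against 74.0 and 74.1 with PRMT1 siRNA alone, and its edgeR change of 0.47 had an adjusted p of 0.148. Lama4 with TGF-beta differed by 0.52 between both siRNAs and PRMT1 siRNA (adjusted p = 0.382).

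Whether an siRNA changed the TGF-beta response itself was asked by interaction terms. In edgeR 0 members were called for PRMT1 siRNA (2.08% of all genes) and 0 for p53 siRNA (1.02%), with 6 and 7 members at an unadjusted p under 0.05. The members' median interaction was 0.01 and -0.13, beside 0.03 and 0.03 for all genes. DESeq2 called 2 for each, against 5.37% and 3.23% of all genes: Itgb1 lower and Lamb2 higher for PRMT1 siRNA, and Itga3 and Itgb1 lower for p53 siRNA. The edgeR interaction of Itgb1 with PRMT1 siRNA was -0.35 ± 0.11 (adjusted p = 0.129), its response being 1.04 under control and 0.69 under PRMT1 siRNA. For Lamb2 it was 0.39 ± 0.12 (adjusted p = 0.110), its response being -1.07 under control and -0.68 under PRMT1 siRNA. The p53 siRNA interactions were -0.38 ± 0.10 for Itga3 (adjusted p = 0.0997) and -0.32 ± 0.11 for Itgb1 (adjusted p = 0.204). The length trends of these interactions were -0.64 and -0.67 log2 per 10-fold length.

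Without the library that stands apart, 15 libraries gave a larger share of called genes in all siRNA comparisons but that of p53 siRNA with TGF-beta, so member counts, out of 28 tested there, are read against those shares. PRMT1 siRNA then had 6 called members without TGF-beta (26.4% of the 16103 genes tested) and 9 with it (41.4%). p53 siRNA had 5 without TGF-beta (11.7%) and 3 with it (4.1%). Adding p53 siRNA to PRMT1 siRNA had 6 without (21.6%) and 2 with TGF-beta (12.2%). The PRMT1 siRNA interaction had 7 (30.7%) and the p53 siRNA interaction 2 (2.24%). The 7 of 28 members are a smaller share than the 30.7% of all genes. They were Itgav, Itgb1, Itgb3, Lama1 and Lamc1, whose TGF-beta response was lower with PRMT1 siRNA, and Itgb5 and Lamb2, whose response was higher. Among them Itgav stood at -0.71 ± 0.10 (adjusted p = 5.13e-04) and Lama1 at -1.25 ± 0.31 (adjusted p = 0.00995), against -0.72 ± 0.29 (adjusted p = 0.191) and -1.25 ± 0.41 (adjusted p = 0.132) with 16 libraries. The library left out is in none of the groups of this interaction, whose length trend was -0.64 log2 per 10-fold length with 16 libraries. Lama1, Lamc1 and Itgav have 9526, 7622 and 7054 bases, Itgb3 5784, Lamb2 5629, Itgb1 3815 and Itgb5 3282. The 2 for p53 siRNA were Itga11, higher by 1.0 ± 0.22 (adjusted p = 0.0287), and Itga3, lower by 0.38 (adjusted p = 0.0444), against 0.83 ± 0.25 (adjusted p = 0.154) for Itga11 with 16 libraries.

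Genes that link integrins to actin responded to TGF-beta with more rises than falls. Of 40 listed genes of the adhesion machinery 37 were tested, and under control siRNA 16 rose and 7 fell, against 17.8% and 20.6% of all genes, with a median of 0.26 against -0.01 for all genes. Tln2, a talin that activates integrins, had 48.4 and 58.4 CPM and then 280 and 281 (2.40 ± 0.21, adjusted p = 2.65e-06). Zyx, the focal adhesion protein zyxin, rose by 1.56 and Actn1, an actin crosslinker, by 1.21, while Ptk2b, a kinase related to focal adhesion kinase, fell by 1.26. In the other settings 18, 16 and 16 rose (16.3%, 23.3% and 15% of all genes) and 8, 9 and 7 fell (16.2%, 22.0% and 16.3%). p53 siRNA lowered 0 of them without TGF-beta (1.29% of all genes) and 2 with it (2.39%). PRMT1 siRNA lowered 4 of these genes without TGF-beta, against 5.85% of all genes, and 5 with it, against 6.53%. It raised none, against 4.48% and 9.13% of all genes. Among these were Ptk2, focal adhesion kinase itself (-0.33 and -0.51 in the 2 conditions), and Cd151, a tetraspanin partner of laminin-binding integrins (-0.39 and -0.59). Pxn, which encodes paxillin, was lower without TGF-beta (-0.39). Without 1 library, all 3 calls without TGF-beta were lost in at least 2 of the 4 fits (highest adjusted p = 0.135 for Ptk2, 0.266 for Cd151 and 0.0652 for Pxn), and the Cd151 call with TGF-beta in 2 (highest adjusted p = 0.0631).

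Of 24 listed partners and receptors of laminin 23 were tested, and under control siRNA 9 rose and 8 fell, against 17.8% and 20.6% of all genes, with a median of 0.11 against -0.01. Sdc3, a syndecan, rose from 2.08 and 3.14 CPM to 47.6 and 46.2 (4.17 ± 0.17, adjusted p = 6.30e-09). Nid2, a nidogen that joins laminin to collagen in basement membranes, fell from 382 and 412 CPM to 46.8 and 41 (-3.18 ± 0.13, adjusted p = 6.87e-09). Bcam, an adhesion receptor for alpha5 laminins, fell by 3.72 and Sdc4, the syndecan of focal adhesions, by 1.98. The other settings had 7, 8 and 8 rises (16.3%, 23.3% and 15% of all genes) and 8, 10 and 9 falls (16.2%, 22.0% and 16.3%). PRMT1 siRNA raised 1 and lowered 3 of these genes without TGF-beta (4.48% and 5.85% of all genes) and raised 2 and lowered 3 with it (9.13% and 6.53%). Col18a1, a basement membrane collagen, was higher by 0.87 with PRMT1 siRNA and by 0.87 with p53 siRNA, both without TGF-beta. p53 siRNA raised 2 without TGF-beta (1.17% of all genes) and lowered 2 with it (2.39%). Sdc3 was lower by 1.13 with PRMT1 siRNA in the presence of TGF-beta.

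The epicardial label was checked by 13 marker genes, all of which passed the filter. Their summed level was 1920 to 2820 CPM without TGF-beta and 393 to 561 with it. Under control siRNA 12 of the 13 fell, against 20.6% of all genes, in the same comparison in which Itga3, Itga6, Lama5 and Lamb2 fell. Wt1, the Wilms tumour factor of the epicardium, had 108 to 319 CPM over the 16 libraries. Large parts of the sum in control libraries came from Upk3b (586 and 561 CPM) and Lrrn4 (540 and 600 CPM). Of the 13, Aldh1a2 (2 to 28 counts, 0.0847 to 1.14 CPM) and Krt19 (2 to 46 counts, 0.0715 to 1.59 CPM) were near the floor in some libraries. The 9 endothelial markers summed to 4.6 to 9.80 CPM, with Tie1 at no count and Cdh5 at 7 counts or fewer. The endothelial sum was 4.6 and 5.18 CPM in control libraries, 6.60 and 8.11 with PRMT1 siRNA, 8.88 and 8.94 with p53 siRNA and 9.42 and 9.45 with both, beside the higher levels of Lama4, a chain that endothelium also makes. With TGF-beta it was 7.25 and 8.00 with control siRNA, where Lama4 fell, and 7.96 and 8.41 with PRMT1 siRNA, where Lama4 was higher than with control siRNA. Kdr held most of that sum, at 2.92 to 7.47 CPM, and Tek had 0.382 to 2.45 CPM. Without TGF-beta 1 of the 3 endothelial markers tested, Kdr, was higher with PRMT1 siRNA (0.77, edgeR adjusted p = 0.0259), against 4.48% of all genes. With p53 siRNA 0 of them were called there, against 2.47% of all genes. In the presence of TGF-beta PRMT1 siRNA had 0 called, against 15.7%. Of the 3 endothelial markers tested 1 rose and 1 fell with TGF-beta under control siRNA, against 17.8% and 20.6% of all genes. The 9 cardiomyocyte markers summed to 3.28 to 140 CPM, of which Tnnt2 held 1.95 to 140, while Myh6, Myh7, Actn2 and Nppa had at most 2 counts. Of the 2 cardiomyocyte markers tested, 1 rose with TGF-beta under control siRNA, against 17.8% of all genes. Their sum was 3.28 and 3.63 CPM with PRMT1 siRNA against 19.5 and 20.5 with control siRNA, both without TGF-beta, beside the rise of Lama4. The part of these markers in the results on integrins and laminins was not tested.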

How the data were processed

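MEC1 cells under 4 siRNA treatments, each without and with TGF-beta, gave 16 RNA-seq libraries in 8 groups of 2. Reads were aligned with TopHat2 and quantified in Partek on mm10, per the submitters' processing notes, which give no versions; the annotation and the strand setting are not given in the sources used here. The authors deposited expected counts (estimated counts) per gene, and 60.0% of the values above 0 were whole within 0.01; totals were 19617874 to 30759317 a library. They were rounded. The 36 members and the 7 other gene lists were chosen with earlier results of these data known.

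In R 4.3.3, edgeR 4.0.16 filtered low counts (filterByExpr), scaled by TMM and fitted 1 mean per group over all 16 libraries; its quasi-likelihood F test was adjusted by Benjamini and Hochberg over 15494 genes, and calls are at adjusted p under 0.05. CPM uses TMM library sizes. The procedure was run on simulated counts with 200 changed genes. Those counts had a smaller spread than the data, no library that stands apart and no length trend. That run therefore cannot show how the calls behave under these features. With 12 contrasts, adjustment was within each. Alternatives were DESeq2 1.42.0, its size factors (RLE), no filter, the groups of a contrast only, a replicate block, 15 libraries, lowess length offsets (span 0.3), and leaving out each library, with a lone sample given the spread of the remaining groups. Lengths are of the longest GENCODE transcript, matched by symbol for 42003 genes and by synonym for 818; all 36 members had one. Promoters are from RefSeq (GRCm38.p6); no entry was found for Itga6, Itga7, Itgad, Itgae, Itgal, Itgb2, Itgb3, Itgb4, Lama1, Lama3, Lama4, Lamc1 and Lamc3. The text may name every member, up to 4 called genes with the lowest adjusted p per other list and contrast, and Prmt1 and Trp53; cell type markers named for their level alone were picked after their values were seen.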

Additional observations from a re-analysis of the deposited data

Results flagged for a closer look

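The TGF-beta response of Ptk2b, a kinase related to focal adhesion kinase, differed between p53 and control siRNA by a test of the difference itself, an interaction of -1.18 ± 0.12 (SE, edgeR adjusted p = 0.00191, n = 2 libraries per group). It had 39.3 and 40.7 CPM with control siRNA and 16.3 and 17.0 after TGF-beta, and 51.8 and 49.0 with p53 siRNA and 8.91 and 9.70 after TGF-beta. All 4 treated libraries were below the 4 untreated ones. The adjusted p was 0.161 when only the groups of the comparison were fitted. The Col18a1 interaction with p53 siRNA was -0.77 (adjusted p = 0.0302).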

How the results depend on the processing

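The TGF-beta calls among the members, 18 to 20 of 27 by setting of siRNA, stayed within 1.5 times under every alternative run, and no direction among the called values reversed. The shares of all genes called were 38.4%, 32.5%, 45.3% and 31.3% under control, PRMT1, p53 and both siRNAs. With the groups of the comparison alone, these shares were 50.4%, 62.6%, 15.3% and 44.3%. The called members then numbered 20 of 22, 20 of 24, 15 of 23 and 19 of 25. Counts of called members for the siRNAs moved more, and are given with the share of all tested genes called under the same setting. PRMT1 siRNA without TGF-beta (3 members, 10.3%) had 6 in 15 libraries (26.4%), 7 and 12 with length offsets in 16 and 15 libraries (22.3% and 33.1%), 5 with the groups of the comparison alone (18.8%) and 1 to 2 without 1 library (2.46% to 3.45%). PRMT1 siRNA with TGF-beta (7, 15.7%) had 11 with length offsets in 15 libraries (38.7%), 12 with its groups alone (53.2%) and 3 to 4 without 1 library (4.29% to 4.95%). p53 siRNA without TGF-beta (1, 2.47%) had 2 with no low-count filter (2.2%), 5 in 15 libraries (11.7%), 2 and 8 with length offsets (8.67% and 17.8%), 4 with its groups alone (5.08%), 2 in DESeq2 (4.23%) and 0 to 0 without 1 library (0.341% to 0.789%). p53 siRNA with TGF-beta (3, 5.21%) had 6 with no filter (11.9%), 6 and 5 with length offsets (11.4% and 8.23%), 0 with its groups alone (0.0%), 5 in DESeq2 (9.85%) and 0 to 11 without 1 library (0.923% to 53.5%). p53 siRNA added to PRMT1 siRNA without TGF-beta (0, 0.865%) had 2 with no filter (4.18%), 6 in 15 libraries (21.6%), 7 with length offsets in 15 (19.3%), 3 with its groups alone (16.8%) and 1 in DESeq2 (3.58%). With TGF-beta (0, 0.452%) it had 1, 2, 2 and 2 in the first 4 of these (2.12%, 12.2%, 12.5% and 21%). The PRMT1 siRNA interaction (0, 2.08%) had 2 with no filter (7.69%), 7 in 15 libraries (30.7%), 4 and 9 with length offsets (8.38% and 24.1%), 7 with its groups alone (32.3%) and 2 in DESeq2 (5.37%). The p53 siRNA interaction (0, 1.02%) had 4 with no filter (7.05%), 2 in 15 libraries (2.24%), 1 and 2 with length offsets (4.13% and 4.85%), 2 in DESeq2 (3.23%) and 0 to 9 without 1 library (0.18% to 47.9%), the 9 when TGF-beta-treated p53 siRNA replicate 1 was left out. The cause of these moves was not tested.

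The replicate numbers did not pair the libraries: over 28 pairs of groups the deviations of same-numbered libraries correlated at -0.401 to 0.246, with 6 pairs over 0.1. With a replicate block the called members numbered 20, 18, 19 and 19 for TGF-beta under control, PRMT1, p53 and both siRNAs. The shares of all genes called there were 36.5%, 29.9%, 43.1% and 29.3%. PRMT1 siRNA had 2 members without and 7 with TGF-beta (8.17% and 12.8% of all genes), and p53 siRNA 1 and 3 (1.78% and 3.82%). The other 4 contrasts had 0 members. Their shares were 0.387% and 0.232% for p53 siRNA added to PRMT1 siRNA, without and with TGF-beta. For the PRMT1 and p53 siRNA interactions they were 1.47% and 0.671%. The block ended the call of Itga3 with PRMT1 siRNA without TGF-beta and no other member's. Genes under about 1 CPM, such as Itga9 or Itgb8, limit what this depth can show.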

Other observations

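Of the leukocyte markers, Lcp1 had 1.03 to 5.68 CPM and Csf1r 0.762 to 2.83 CPM over the 16 libraries, while Ptprc had at most 4 counts.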
